A study of Mus musculus with 24 samples.

Results

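The 39 genes described here encode the machinery of DNA replication and of entry into S phase, the part of the cell cycle in which the genome is copied. They were taken as a list of 39 gene symbols, each matched through the RefSeq symbol to the Entrez gene ID of the files. All 39 were found among the 36528 IDs, and all 39 passed the filter on low counts that left 15429 genes for testing. By role, 10 act in origin licensing, 6 in helicase activation, 9 as polymerase, primase, clamp or clamp loader, 2 in joining of the lagging strand, 4 in nucleotide supply, 3 as regulators of the G1/S transition and 5 in chromatin and histone supply.

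Polyadenylated RNA was sequenced from primary organoids of mouse small intestine, which are cultures of intestinal epithelium grown in a dish. The 24 libraries form 6 groups of 4: dFz7-21 at 24 h, Fz7-21S at 24 h, DMSO at 24 h, dFz7-21 at 6 h, Fz7-21S at 6 h and DMSO at 6 h. Per the series' design text, dFz7-21 is a peptide blocker of the Wnt receptor Frizzled 7, and DMSO is the vehicle. The labels give neither dose, medium, mouse strain nor age, give nothing about Fz7-21S beyond its name, and do not say whether replicates are separate cultures or animals, so that the p-values rest on a spread among libraries that may be technical.

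In cells that are about to divide, the origin recognition complex with Cdc6 and Cdt1 loads the ring-shaped MCM helicase onto DNA, and Cdc45 and the GINS complex then activate it so that polymerases can copy the strands behind it. Many of the genes for these proteins are transcribed late in G1 by transcription factors of the E2F family, and cyclin E with its kinase promotes that transition. In the small intestine, stem cells and their transit-amplifying daughters divide in the crypts under Wnt signalling, while the differentiated cells of the villus have left the cycle.

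The libraries held 20.4 M to 33.1 M counts each. Epcam, an adhesion protein of epithelium, was present in all 24 libraries at 1468 to 2492 CPM (counts relative to a library's total, scaled by TMM factors), and Ptprc, the pan-leukocyte marker, was at 0.221 CPM or less. Some libraries stood apart from the rest. The summed level of 8 mesenchymal marker genes was 905 CPM in dFz7-21 24 h replicate 3, 191 CPM in DMSO 6 h replicate 1 and 135 CPM in DMSO 6 h replicate 2, against at most 7.45 CPM in the others. In Fz7-21S 24 h replicate 4, long genes were low relative to short genes: the difference between the longest and the shortest of 3 equal bins of 15394 genes was -0.78 on the log2 scale relative to the mean of the other 3 libraries of its group, against -0.12 to 0.36 in the other 23 libraries. Among the listed genes, the 14 in the short bin were a median 0.38 higher on the log2 scale in that library than in the same mean, and the 6 in the long bin differed by a median of -0.01. The long-minus-short values of Fz7-21S 24 h replicates 1, 2 and 3 were 0.36, 0.24 and 0.17, each against a mean that includes replicate 4. Outside that group the values ran from -0.12 to 0.15.

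Promoter sequence is shown here because many of the genes fell together and because the E2F family is known to act at such promoters. RefSeq promoter windows of GRCm38.p6, from 250 bases before to 50 bases after an annotated start, were at hand for 32 of the 39 genes. There were 37 windows, as 4 genes had more than 1. A start can lie inside the outer bounds of the gene, as those of Orc1, Cdc6 and E2f1 do. The sequence at the outer bound of E2f1, before that start, was not searched. They were searched on both strands for a class of E2F-type letters (the letters TTCCCGC, or the letters TTGGCGC, or the letters TTCGCGC, or the letters TTGCCGC), of which the second and the reverse of the third overlap where they meet. At least 1 match in any of its windows was present for 20 of 32 genes (62.5%). The share was 18.5% of the 11334 tested genes in the table and 10.9% of all 27025 genes in it. Many of the listed genes are known to be transcribed by E2F factors, so a higher share is built into the list. That share says nothing about the response to treatment. The stretches printed here run from 170 bases before to 30 bases after a start. Of the 8 genes, 6 were picked among those with a match, and Mcm2 and E2f1, which also fell, among those without one; the choice was made after the matches were seen. Capitals mark the E2F-type matches, read on either strand, and the sequences are given 5′ to 3′ along the gene.
Mcm6 (helicase subunit, chr1:128359676-128359875, minus strand): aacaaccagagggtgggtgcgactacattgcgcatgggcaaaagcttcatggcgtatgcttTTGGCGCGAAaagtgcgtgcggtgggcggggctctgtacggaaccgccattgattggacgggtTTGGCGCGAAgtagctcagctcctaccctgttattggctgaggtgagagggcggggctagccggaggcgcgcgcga
Mcm5 (helicase subunit, chr8:75109339-75109538, plus strand): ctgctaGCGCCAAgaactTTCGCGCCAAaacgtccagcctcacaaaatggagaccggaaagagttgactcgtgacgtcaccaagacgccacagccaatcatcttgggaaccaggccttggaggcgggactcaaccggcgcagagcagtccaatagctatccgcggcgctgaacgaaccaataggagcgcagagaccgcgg
Orc1 (origin recognition, chr4:108579284-108579483, plus strand): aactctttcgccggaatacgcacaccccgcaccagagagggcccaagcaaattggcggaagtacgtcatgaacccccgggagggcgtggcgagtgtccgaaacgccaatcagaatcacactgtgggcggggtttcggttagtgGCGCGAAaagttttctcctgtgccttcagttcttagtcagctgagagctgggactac
Cdc6 (helicase loader, chr11:98907981-98908180, plus strand): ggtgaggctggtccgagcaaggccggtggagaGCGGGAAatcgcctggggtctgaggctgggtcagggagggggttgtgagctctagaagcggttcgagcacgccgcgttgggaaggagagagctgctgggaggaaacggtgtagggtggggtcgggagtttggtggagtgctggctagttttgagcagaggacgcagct
Uhrf1 (reader of hemimethylated DNA, chr17:56303167-56303366, plus strand): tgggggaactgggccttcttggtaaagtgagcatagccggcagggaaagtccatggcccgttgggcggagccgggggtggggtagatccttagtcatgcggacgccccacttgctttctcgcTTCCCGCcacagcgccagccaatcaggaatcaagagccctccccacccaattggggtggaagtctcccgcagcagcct
Cdca7 (nucleosome remodelling cofactor, chr2:72476049-72476248, plus strand): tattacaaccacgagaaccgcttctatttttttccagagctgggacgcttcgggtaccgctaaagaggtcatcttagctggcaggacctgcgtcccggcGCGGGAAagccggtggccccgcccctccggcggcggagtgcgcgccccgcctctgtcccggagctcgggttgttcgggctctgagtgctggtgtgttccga
Mcm2 (helicase subunit, chr6:88898751-88898950, minus strand, no match): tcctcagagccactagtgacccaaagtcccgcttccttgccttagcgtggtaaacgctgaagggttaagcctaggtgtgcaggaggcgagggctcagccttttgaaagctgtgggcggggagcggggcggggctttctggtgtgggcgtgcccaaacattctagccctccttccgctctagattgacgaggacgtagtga
E2f1 (transcription factor, chr2:154569397-154569596, minus strand, no match): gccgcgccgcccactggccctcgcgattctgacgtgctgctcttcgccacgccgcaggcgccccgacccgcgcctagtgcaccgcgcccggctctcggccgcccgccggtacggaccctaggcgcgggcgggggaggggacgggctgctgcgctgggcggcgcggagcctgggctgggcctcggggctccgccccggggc

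The printed stretch of Mcm6 holds 4 overlapping matches in 2 runs and that of Mcm5 holds 3, while those of Orc1, Cdc6, Uhrf1 and Cdca7 hold 1 each. A further Mcm6 match began 25 bases from the start and ran past the end of the printed stretch. Of the 32 genes, 10 had a window with at least 2 matches, and 26 matches began before the start and 15 from the start on. The 12 genes without such letters were Mcm2, Mcm10, Orc6, Cdc45, Pcna, Pola2, Rfc5, Tyms, Tk1, Ccne1, E2f1 and Slbp, which says only that these letters are not in these windows. The box CCAAT was found for 59.4% of the members, 80.0% of 25 genes of G2 and mitosis and 42.6% of tested genes. The letters TTTGAA, which resemble the cell cycle homology region of mitotic genes, were found for 12.5%, 72.0% and 14.6% of the same sets. The E2F-type letters were found for 3 of the 25 genes of G2 and mitosis (12.0%). A match is a description of sequence, not a binding site.

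**Figure D1:**
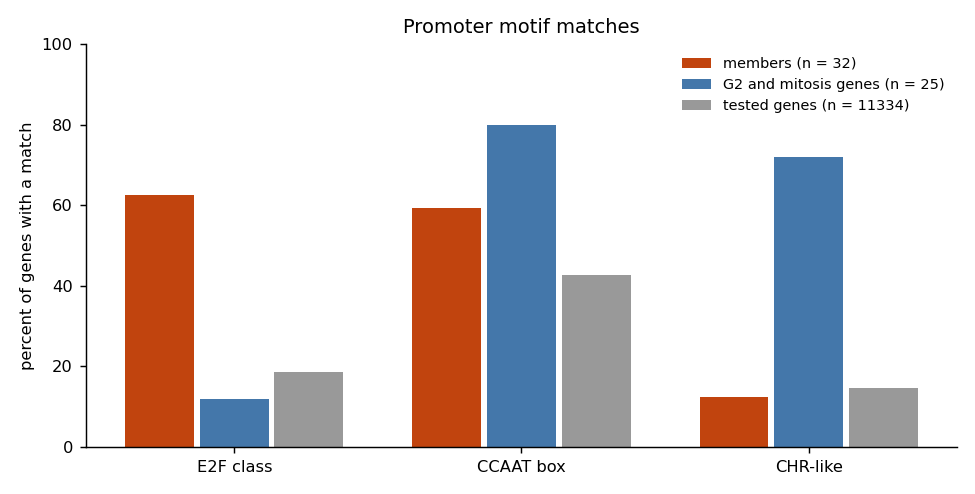
Percent of genes with at least 1 match to each motif class in a RefSeq promoter window (300 bases), for the 32 listed genes, 25 genes of G2 and mitosis and 11334 tested genes; bars start at 0. The E2F-type letters were found for 62.5% of the members and the TTTGAA letters (CHR-like) for 72.0% of the G2 and mitosis genes.

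After 24 h with dFz7-21, most of the replication genes were lower. Of 39 genes, 37 were called lower and 0 higher than with DMSO by the edgeR quasi-likelihood test at an adjusted p below 0.05, where 17.7% of all tested genes were called lower and 18.2% higher. The 39 genes were chosen with earlier results of these data known, so the count was not tested against that background. The median log2 change was -0.45, which is a level 27.0% lower, against a median of -0.01 over all tested genes. All 4 dFz7-21 libraries lay below all 4 DMSO libraries for 37 genes, as they did for 19% of all tested genes. Scaled by library totals alone, without TMM factors, 4006 tested genes were called lower and 2035 higher at 24 h, against 2733 and 2804 with TMM. Because the RNA came from whole cultures, fewer cells in S phase and less of these transcripts per cell cannot be told apart.

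The same picture was present after 6 h. Of 39 genes, 36 were called lower and 0 higher with dFz7-21 than with DMSO, while 5% of all tested genes were called lower and 6.05% higher. The median log2 change was -0.44, against 0.01 over all tested genes. For 36 members the dFz7-21 libraries lay below every DMSO library, as for 10.8% of tested genes. Without the 3 libraries with mesenchymal transcripts, which leaves 2 DMSO libraries at 6 h, 26 members were called. In that fit 2.16% of all tested genes were called lower. When Fz7-21S 24 h replicate 4 was left out as well, 37 members were called, and 6.37% of all tested genes were called lower.

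The dFz7-21 libraries were also lower than those with Fz7-21S. At 24 h, 36 members were called lower and 0 higher with dFz7-21 than with Fz7-21S (median log2 change -0.50), against a background of 17.2% lower and 16.5% higher. After 6 h, 29 were called lower and 0 higher (median -0.33), against 3.83% lower and 3.21% higher. These comparisons share their dFz7-21 libraries with those against DMSO. In all 4 comparisons together, 28 members were called lower every time, as were 2.45% of all tested genes, and the 11 that were not are Orc6, Gins1, Gins3, Gins4, Pola1, Pole, Rfc2, Rrm2, Tyms, Tk1 and Ccne2. All 4 dFz7-21 libraries lay below all 4 with Fz7-21S for 34 members at 24 h, as for 12.5% of tested genes, and for 33 at 6 h, as for 10.5%. They lay below all 8 libraries of the other groups of their time for 34 members at 24 h, for 33 at 6 h and for 29 at both times, as for 9%, 7.21% and 3.08% of tested genes.

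Between Fz7-21S and DMSO no member was called at either time. The edgeR test gave 0 of 39 at 24 h and 0 of 39 at 6 h, DESeq2 gave 0 and 0, and 4 members at each time had an unadjusted p below 0.05. Of all 15429 tested genes, 3673 had such an unadjusted p at 24 h and 614 at 6 h. Over all tested genes, 0.259% were called higher and 0% lower at 24 h, and 0.00648% higher and 0% lower at 6 h. At 6 h, 36 of 39 members had a negative log2 change (median -0.07), and at 24 h 28 of 39 had a positive one (median 0.03). The member log2 changes ran from -0.21 to 0.24 at 24 h and from -0.28 to 0.03 at 6 h, and no 95% interval reached below -0.42 or above 0.45 at 24 h, nor below -0.53 or above 0.20 at 6 h. The smallest p at 24 h were those of Pcna (0.24 ± 0.09 SE), Gins4 (0.21 ± 0.08), Orc6 (0.16 ± 0.07) and Rfc3 (0.19 ± 0.09), with adjusted p of 0.164 to 0.186. At 6 h they were those of Mcm6 (-0.12 ± 0.05), Pola1 (-0.28 ± 0.12), Rrm2 (-0.15 ± 0.07) and Mcm5 (-0.11 ± 0.05), each with an adjusted p of 0.999. Leaving out Fz7-21S 24 h replicate 1 called Pcna (0.28 ± 0.09, adjusted p = 0.0447).

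**Figure D2:**
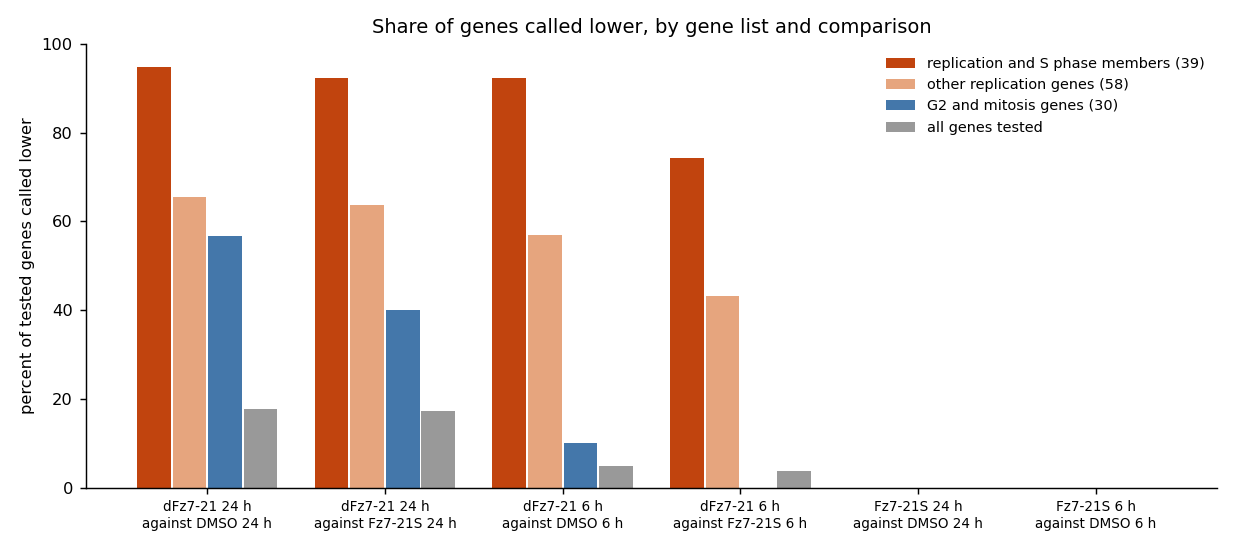
Percent of tested genes called lower (edgeR, adjusted p below 0.05) for the 39 listed genes, 58 other replication genes, 30 genes of G2 and mitosis and all 15429 tested genes, in 6 comparisons; bars start at 0. The listed genes reached 94.9%, 92.3%, 92.3% and 74.4% in the 4 dFz7-21 comparisons and 0% between Fz7-21S and DMSO.

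As levels averaged over the 39 genes (mean log2 CPM), the 4 dFz7-21 24 h libraries lay between 5.58 and 5.72, against 6.09 to 6.25 with Fz7-21S and 6.12 to 6.14 with DMSO. The 6 h libraries lay between 5.46 and 5.58 with dFz7-21, 5.81 and 5.89 with Fz7-21S, and 5.91 and 5.95 with DMSO. No dFz7-21 library overlapped either other group of its time, and the Fz7-21S libraries lay wholly below those with DMSO at 6 h and overlapped them at 24 h. Per length, the most abundant transcript in DMSO 6 h was Mcm6, at 90.3 ± 3.82 RPKM (SD, n = 4), followed by Mcm3 at 66.5 ± 1.99, Mcm5 at 62.0 ± 1.35 and Mcm2 at 61.2 ± 2.0, of which the last pair lay within their spread. The lowest levels were those of Pole at 5.44 ± 0.266, Gins3 at 5.91 ± 0.200 and Cdc6 at 6.26 ± 0.207 RPKM.

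The licensing genes fell as a block. At 24 h all 10 were called lower with dFz7-21 than with DMSO, by -0.34 (Orc6) to -0.91 (Orc1) on the log2 scale with a median of -0.59, and at 6 h 9 of 10 were, with a median of -0.51. Against Fz7-21S the counts were 10 at 24 h and 9 at 6 h. Orc6, a subunit of the origin recognition complex, was the exception at 6 h (-0.21 ± 0.07, adjusted p = 0.0506 against DMSO, and -0.13 ± 0.07, adjusted p = 0.328 against Fz7-21S).

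Mcm2 (chromosome 6, 88883474 to 88898780) encodes a subunit of the helicase ring. At 24 h, Mcm2 stood at 115, 99.0, 124 and 115 CPM with dFz7-21, at 171, 171, 169 and 145 CPM with Fz7-21S, and at 173, 189, 177 and 176 CPM with DMSO. At 6 h, Mcm2 stood at 144, 155, 142 and 154 CPM with dFz7-21, at 194, 211, 189 and 194 CPM with Fz7-21S, and at 203, 216, 205 and 203 CPM with DMSO. The dFz7-21 libraries were the lowest of their time, without overlap, and Fz7-21S 24 h replicate 4 was the lowest of its group. The log2 change against DMSO was -0.66 ± 0.06 at 24 h (adjusted p = 1.29e-08) and -0.47 ± 0.06 at 6 h (adjusted p = 1.00e-05). Against Fz7-21S it was -0.54 ± 0.06 and -0.40 ± 0.06 at 24 h and at 6 h.

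Mcm6 (chromosome 1, 128331575 to 128359705), another subunit of the ring and the most abundant of the list, had the smallest p against DMSO at 6 h. At 24 h, Mcm6 stood at 172, 162, 177 and 183 CPM with dFz7-21, at 271, 265, 250.2 and 244 CPM with Fz7-21S, and at 258, 248, 264 and 267 CPM with DMSO. At 6 h, Mcm6 stood at 176, 176, 169 and 189.7 CPM with dFz7-21, at 237, 252, 239 and 238 CPM with Fz7-21S, and at 264, 271, 268 and 246 CPM with DMSO. No dFz7-21 library reached the other groups, and Mcm6 with dFz7-21 was 1.5-fold lower than with DMSO at 24 h and 1.48-fold lower at 6 h. The log2 changes were -0.58 ± 0.05 (adjusted p = 2.07e-09) and -0.56 ± 0.05 (adjusted p = 3.65e-08). Mcm5, a further subunit, changed by -0.53 ± 0.05 and -0.56 ± 0.05, and Mcm3, Mcm4 and Mcm7 by -0.50 to -0.59 at 24 h and -0.49 to -0.58 at 6 h, so that the whole ring moved by a similar amount.

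Cdc6 (chromosome 11, 98907709 to 98923942) and Cdt1 (chromosome 8, 122568015 to 122573130) encode the loaders that place the helicase on origins. At 24 h, Cdc6 stood at 17.1, 15.8, 15.1 and 16.3 CPM with dFz7-21, at 27.6, 26.2, 24.5 and 27.0 CPM with Fz7-21S, and at 25.9, 23.6, 27.9 and 26.1 CPM with DMSO. At 6 h, Cdc6 stood at 19.2, 20.7, 19 and 21.9 CPM with dFz7-21, at 29.7, 31.4, 31.1 and 30.9 CPM with Fz7-21S, and at 30.8, 33.1, 31.4 and 31.2 CPM with DMSO. The dFz7-21 libraries lay apart from the others at each time, while Fz7-21S and DMSO overlapped. Cdc6 fell by 0.69 ± 0.06 on the log2 scale against DMSO at 24 h (adjusted p = 9.68e-09) and by 0.65 ± 0.06 at 6 h (adjusted p = 1.76e-07).

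At 24 h, Cdt1 stood at 60.8, 52.2, 64.1 and 56.3 CPM with dFz7-21, at 85.0, 93.4, 96.3 and 101 CPM with Fz7-21S, and at 89.8, 89.2, 97.1 and 89.2 CPM with DMSO. At 6 h, Cdt1 stood at 68.1, 74.6, 69.1 and 72.3 CPM with dFz7-21, at 87.3, 106, 93.9 and 106 CPM with Fz7-21S, and at 101, 105, 101 and 98.8 CPM with DMSO. Again the dFz7-21 libraries lay below all others of their time. The log2 change of Cdt1 against DMSO was -0.65 ± 0.07 at 24 h (adjusted p = 6.85e-08) and -0.52 ± 0.07 at 6 h (adjusted p = 1.05e-05).

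Orc1 (chromosome 4, 108575705 to 108616030), the largest subunit of the origin recognition complex, fell further with time. At 24 h, Orc1 stood at 13.0, 11.1, 13.6 and 13.0 CPM with dFz7-21, at 23.2, 24.5, 19.9 and 20.8 CPM with Fz7-21S, and at 23.3, 23.1, 22.5 and 26.5 CPM with DMSO. At 6 h, Orc1 stood at 21.4, 20.3, 20.6 and 22.6 CPM with dFz7-21, at 27.1, 30.4, 28.3 and 28.2 CPM with Fz7-21S, and at 29.7, 31.0, 30.7 and 28.3 CPM with DMSO. The log2 change against DMSO was -0.91 ± 0.08 at 24 h (1.88-fold lower, adjusted p = 2.26e-09) and -0.50 ± 0.07 at 6 h (adjusted p = 6.04e-05), and the difference between those changes was itself called (-0.42 ± 0.11, adjusted p = 0.0102). The model of Orc1 shares 3632 bases with that of Prpf38a, and as strand is not given for the counting, reads there cannot be told apart.

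**Figure D3:**
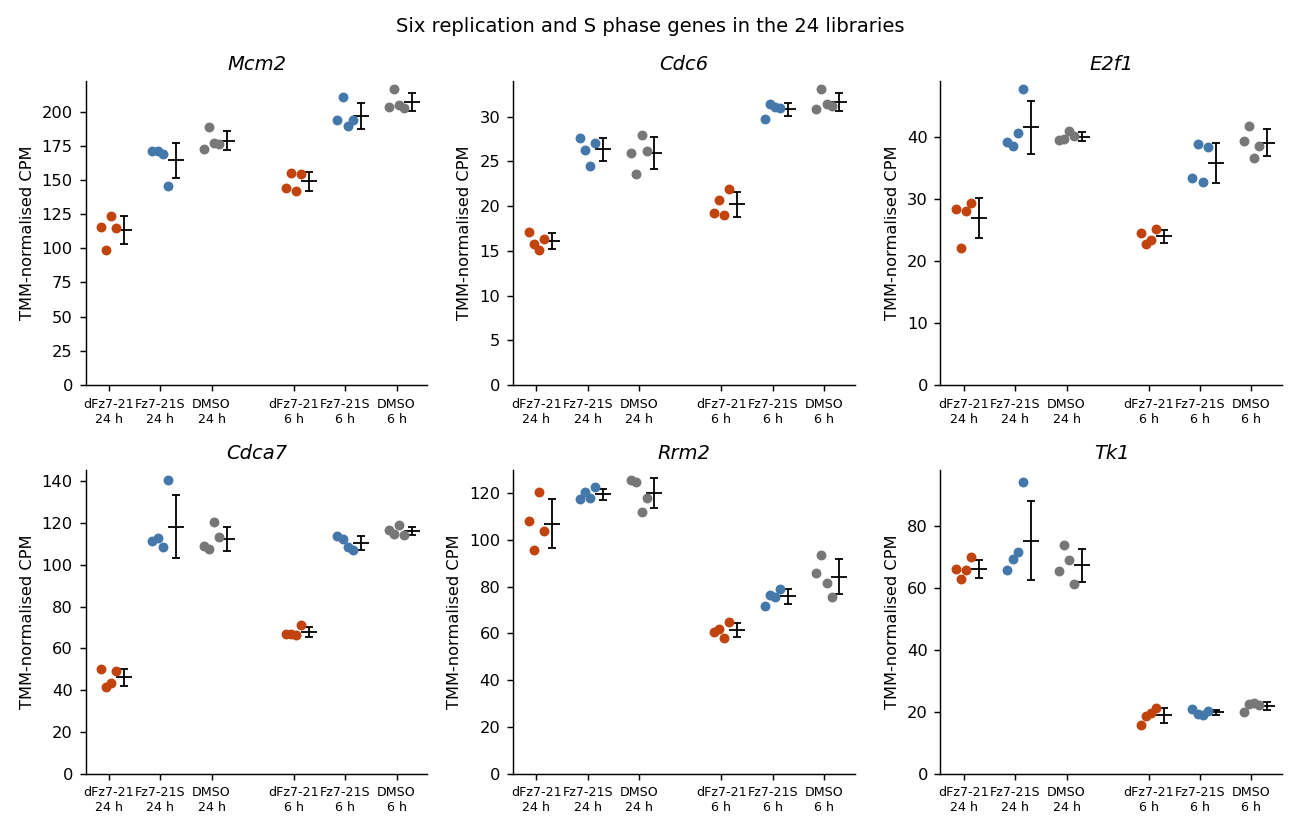
TMM-normalised CPM of 6 listed genes in each of the 24 libraries, with the mean and SD of each group of 4 beside the points (black); every axis starts at 0. Mcm2, Cdc6, E2f1 and Cdca7 were lower in all dFz7-21 libraries of either time, Rrm2 overlapped at 24 h, and the Tk1 groups of a time overlapped while all 24 h libraries lay above all 6 h libraries.

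Helicase activation genes changed less. At 24 h 5 of 6 and at 6 h 5 of 6 were called lower against DMSO, with median log2 changes of -0.40 and -0.36. Mcm10, which helps the loaded helicase to fire, stood at 62.8 ± 3.56 CPM with dFz7-21, 78.1 ± 0.871 CPM with Fz7-21S and 77.4 ± 2.39 CPM with DMSO at 24 h (SD, n = 4). Its log2 change against DMSO was -0.30 ± 0.06 at 24 h (adjusted p = 0.000131) and -0.40 ± 0.06 at 6 h (adjusted p = 2.06e-05). Cdc45, a component of the active helicase, changed by -0.34 ± 0.08 (adjusted p = 0.00126) and -0.43 ± 0.08 (adjusted p = 0.000437), and Gins2, a GINS subunit, by -0.45 ± 0.07 (adjusted p = 2.03e-05) and -0.32 ± 0.07 (adjusted p = 0.00371).

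Gins4 was the member of this set that did not pass against DMSO at either time, at 39.5 ± 2.67 CPM with dFz7-21 and 45.3 ± 2.63 CPM with DMSO at 24 h (-0.20 ± 0.09, adjusted p = 0.0726). At 6 h, its levels were 30.7 ± 1.06 CPM with dFz7-21 and 33.1 ± 1.10 CPM with DMSO (-0.11 ± 0.09, adjusted p = 0.533). Against Fz7-21S at 24 h, Gins4 was called lower (-0.41 ± 0.09, adjusted p = 0.000667). Against Fz7-21S at 6 h, 3 of the 6 activation genes were called, and the Cdc45 call was lost without dFz7-21 replicate 1, 2 or 3 or Fz7-21S replicate 2 or 4 (adjusted p of 0.0574 to 0.0717). The Gins2 call was lost without dFz7-21 replicate 1 or 2 or Fz7-21S replicate 2, 3 or 4 (0.0716 to 0.131). Gins2 against DMSO at 6 h missed the threshold when the 3 libraries with mesenchymal transcripts were left out (-0.32, adjusted p = 0.0555).

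All 9 genes of polymerases, clamp and loader were called lower against DMSO at 24 h and at 6 h, with medians of -0.39 and -0.43. Pola1 on chromosome X (93304766 to 93632387), the catalytic subunit of the polymerase that starts each fragment, changed by -0.63 ± 0.12 at 24 h (adjusted p = 0.000209) and by -0.59 ± 0.12 at 6 h (adjusted p = 0.00168). Pole (chromosome 5, 110286319 to 110337468), the catalytic subunit of the leading-strand polymerase, changed by -0.39 ± 0.11 (adjusted p = 0.00623) and -0.38 ± 0.11 (adjusted p = 0.0208). Rfc3, a subunit of the clamp loader, changed by -0.55 ± 0.09 (adjusted p = 2.54e-05) and -0.57 ± 0.09 (adjusted p = 8.96e-05).

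Pola1 and Pole are long genes, and in Fz7-21S 24 h replicate 4 they stood 0.76 and 0.75 below the mean of the other 3 libraries on the log2 scale (-0.76 and -0.75). The other listed genes of the long bin did not fall that way: Tyms stood at 0.22, Cdc6 at 0.05, Mcm10 at 0.02 and Pola2 at -0.03. Uhrf1, of the middle bin, stood at -0.64 in that library. Pole against Fz7-21S at 24 h was not called with that library (-0.23 ± 0.11, adjusted p = 0.110) and was called without it (-0.36, adjusted p = 1.03e-05). At 6 h, Pole against DMSO lost its call without dFz7-21 replicate 3 or 4 or without DMSO replicate 2 or 3 (adjusted p of 0.0535 to 0.0679) and without the 3 libraries with mesenchymal transcripts (-0.39, adjusted p = 0.136), as did Pola1 in that setting (-0.50, adjusted p = 0.0628). Against Fz7-21S at 6 h, Pola1 (-0.31 ± 0.12, adjusted p = 0.155) and Pole (-0.27 ± 0.11, adjusted p = 0.161) were not called, but both were in a fit of only the groups compared (0.000332 and 0.000234). The same kind of fit ended the Pola1 call against Fz7-21S at 24 h (-0.47, adjusted p = 0.0975, against -0.45 ± 0.12, adjusted p = 0.00518).

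Pcna (chromosome 2, 132249286 to 132253180) encodes the sliding clamp that holds polymerases on DNA, and its change was small. At 24 h, Pcna stood at 33.3, 32.9, 33.3 and 32.9 CPM with dFz7-21, at 42.2, 44.6, 42.9 and 57.8 CPM with Fz7-21S, and at 36.1, 39.3, 42.3 and 41.3 CPM with DMSO. At 6 h, Pcna stood at 28.0, 34.2, 26.6 and 32.0 CPM with dFz7-21, at 35.5, 38.3, 40.2 and 37.2 CPM with Fz7-21S, and at 36.6, 35.9, 38.2 and 37.9 CPM with DMSO. The dFz7-21 libraries were lowest at both times, and Fz7-21S 24 h replicate 4 stood above its group. The log2 change against DMSO was -0.26 ± 0.09 at 24 h (adjusted p = 0.0194) and -0.30 ± 0.09 at 6 h (adjusted p = 0.0242). The 24 h call was lost without dFz7-21 replicate 3 (adjusted p = 0.0514) or DMSO replicate 3 (0.0639) or 4 (0.0512), and the 6 h call without dFz7-21 replicate 1 (0.0811) or 3 (0.0916) or DMSO replicate 3 (0.0658) or 4 (0.0538), and also, at a change of -0.33 (adjusted p = 0.104), when the 3 libraries with mesenchymal transcripts were left out. Pseudogenes named Pcna-ps1 and Pcna-ps2 exist in the annotation, and unique alignment can lose reads that they share.

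Both genes of lagging strand joining fell. Lig1 (chromosome 7, 13277175 to 13311426), the ligase that seals fragments, stood at 24 h at 119.7, 105, 108 and 111 CPM with dFz7-21, at 151, 156, 154 and 175 CPM with Fz7-21S, and at 156, 149.8, 154 and 157 CPM with DMSO. At 6 h, Lig1 stood at 62.4, 71.1, 63.6 and 68.9 CPM with dFz7-21, at 82.5, 89.0, 88.5 and 84.9 CPM with Fz7-21S, and at 88.0, 92.7, 89.5 and 90.7 CPM with DMSO. The dFz7-21 libraries lay below the others of their time, and every 24 h library lay above every 6 h library. Lig1 changed by -0.47 ± 0.05 against DMSO at 24 h (adjusted p = 1.78e-07) and by -0.44 ± 0.05 at 6 h (adjusted p = 4.62e-06). Fen1, the nuclease that trims the flaps before ligation, changed by -0.37 ± 0.06 (adjusted p = 6.47e-05) and -0.45 ± 0.06 (adjusted p = 2.72e-05).

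Nucleotide supply was the set that changed least. Rrm1, the large subunit of ribonucleotide reductase, which makes deoxynucleotides, was lower in all 4 dFz7-21 comparisons: 196 ± 6.12 CPM with dFz7-21, 257 ± 10.9 CPM with Fz7-21S and 266 ± 2.65 CPM with DMSO at 24 h (-0.44 ± 0.05 against DMSO, adjusted p = 7.45e-08). At 6 h, its levels were 157 ± 7.56 CPM with dFz7-21, 198 ± 3.89 CPM with Fz7-21S and 204 ± 11.9 CPM with DMSO (-0.38 ± 0.05, adjusted p = 5.34e-06).

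Rrm2 (chromosome 12, 24708254 to 24714146), the small subunit of the same enzyme, differed between times. At 24 h, Rrm2 stood at 108, 95.8, 120.5 and 104 CPM with dFz7-21, at 117, 120.3, 118 and 123 CPM with Fz7-21S, and at 126, 125, 112 and 118 CPM with DMSO. At 6 h, Rrm2 stood at 60.8, 61.9, 58 and 65.0 CPM with dFz7-21, at 71.6, 76.6, 75.8 and 79.2 CPM with Fz7-21S, and at 85.8, 93.5, 81.7 and 75.8 CPM with DMSO. The groups overlapped at 24 h through dFz7-21 replicate 3, the library with the most mesenchymal transcripts, and did not overlap at 6 h. The log2 change against DMSO was -0.46 ± 0.07 at 6 h (adjusted p = 3.66e-05). At 24 h it was -0.17 ± 0.07 with an adjusted p just under 0.05, and that call was lost with DESeq2 (adjusted p = 0.0662), with RLE size factors (0.0757), with no filter on low counts (0.0933) and without dFz7-21 replicate 1 (0.0888), 2 (0.238) or 4 (0.141) or DMSO replicate 1 (0.129), 2 (0.121) or 4 (0.0687). Against Fz7-21S at 24 h, Rrm2 was not called (-0.16 ± 0.07, adjusted p = 0.0621), but was without dFz7-21 replicate 3 (-0.19, adjusted p = 0.0294) and with library totals alone (-0.21, adjusted p = 0.0214).

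Tyms, the thymidylate synthase, changed little: by -0.22 ± 0.06 against DMSO at 24 h (adjusted p = 0.00379) and by -0.18 ± 0.06 at 6 h (adjusted p = 0.0403). The 6 h call of Tyms was lost on leaving out any 1 of dFz7-21 replicates 1 to 3 or of the 4 DMSO replicates (adjusted p of 0.0526 to 0.111), and without the 3 libraries with mesenchymal transcripts (0.136). Tk1 (chromosome 11, 117815519 to 117826087), the thymidine kinase of the salvage pathway, was not called in any of the 4 dFz7-21 comparisons. At 24 h, Tk1 stood at 66.0, 63.0, 65.8 and 70.2 CPM with dFz7-21, at 65.9, 69.6, 71.6 and 94.3 CPM with Fz7-21S, and at 65.5, 73.9, 69.0 and 61.2 CPM with DMSO. At 6 h, Tk1 stood at 15.8, 18.5, 19.6 and 21.4 CPM with dFz7-21, at 20.8, 19.5, 19 and 20.4 CPM with Fz7-21S, and at 19.9, 22.7, 22.9 and 22.2 CPM with DMSO. All groups of a time overlapped. The log2 change of Tk1 against DMSO was -0.02 ± 0.09 at 24 h (95% interval -0.21 to 0.17) and -0.22 ± 0.10 at 6 h (-0.42 to -0.02, adjusted p = 0.174). The 24 h value turned to 0.00157 to 0.0221 without dFz7-21 replicate 2 or 3 or DMSO replicate 2. At 6 h Tk1 was called in a fit of only the groups compared (-0.23, adjusted p = 0.0456), and at 24 h against Fz7-21S without Fz7-21S replicate 1 (-0.24, adjusted p = 0.0481) and with library totals alone (-0.23, adjusted p = 0.0384).

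All 3 G1/S regulators were called lower against DMSO at both times. E2f1 (chromosome 2, 154559400 to 154569892) encodes a transcription factor that activates many of the genes in the list. At 24 h, E2f1 stood at 28.4, 22.2, 28.0 and 29.3 CPM with dFz7-21, at 39.2, 38.5, 40.8 and 47.8 CPM with Fz7-21S, and at 39.5, 39.7, 41.1 and 40.2 CPM with DMSO. At 6 h, E2f1 stood at 24.6, 22.8, 23.5 and 25.1 CPM with dFz7-21, at 33.4, 38.9, 32.8 and 38.5 CPM with Fz7-21S, and at 39.4, 41.8, 36.6 and 38.6 CPM with DMSO. The dFz7-21 libraries were separate from all others at each time. The log2 change against DMSO was -0.57 ± 0.08 at 24 h (adjusted p = 5.69e-06) and -0.71 ± 0.08 at 6 h (adjusted p = 2.22e-06).

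Ccne1 and Ccne2 encode the E-type cyclins that drive entry into S phase. At 24 h, Ccne1 stood at 31.0, 29.2, 33 and 31.1 CPM with dFz7-21, at 39.1, 36.1, 37.5 and 44.5 CPM with Fz7-21S, and at 37.6, 41.6, 39.9 and 37.7 CPM with DMSO. At 6 h, Ccne1 stood at 31.9, 33, 32.1 and 35.6 CPM with dFz7-21, at 41.0, 43.4, 42.6 and 40.1 CPM with Fz7-21S, and at 46.1, 42.6, 44.8 and 40.6 CPM with DMSO. Here too the dFz7-21 libraries were the lowest. Ccne1 changed by -0.33 ± 0.06 against DMSO at 24 h (adjusted p = 0.000249) and by -0.39 ± 0.06 at 6 h (adjusted p = 0.000151).

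At 24 h, Ccne2 stood at 19.1, 18.8, 18.9 and 19.2 CPM with dFz7-21, at 26.7, 25.1, 21.6 and 23.9 CPM with Fz7-21S, and at 26.8, 25.5, 26.8 and 24.6 CPM with DMSO. At 6 h, Ccne2 stood at 29.97, 27.1, 26.4 and 25.5 CPM with dFz7-21, at 31.4, 29.1, 33.4 and 26.2 CPM with Fz7-21S, and at 35.1, 34.4, 32.5 and 28.2 CPM with DMSO. The groups were apart at 24 h and overlapped at 6 h. The log2 change of Ccne2 against DMSO was -0.45 ± 0.08 at 24 h (adjusted p = 0.000125) and -0.26 ± 0.08 at 6 h (adjusted p = 0.0362), and against Fz7-21S at 6 h it was not called (-0.14 ± 0.08, adjusted p = 0.386). Without the 3 libraries with mesenchymal transcripts the 6 h value against DMSO was -0.16 (adjusted p = 0.522), and leaving out any 1 of dFz7-21 replicates 2 to 4 or DMSO replicates 1 to 3 also ended that call (0.0713 to 0.132). The model of Ccne2 shares 5622 bases with Ints8, whose reads cannot be told apart from its own there without strand.

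In chromatin and histone supply, all 5 genes were called lower in each of the 4 dFz7-21 comparisons. Cdca7 (chromosome 2, 72476187 to 72486892), which works with the remodeller Hells on chromatin, fell more than any other of the 39 at 24 h and at 6 h against DMSO. At 24 h, Cdca7 stood at 49.9, 41.7, 43.6 and 49.1 CPM with dFz7-21, at 111, 113, 109 and 141 CPM with Fz7-21S, and at 109, 107, 120.4 and 113 CPM with DMSO. At 6 h, Cdca7 stood at 66.7, 67.0, 66.6 and 71.3 CPM with dFz7-21, at 114, 112, 108 and 107 CPM with Fz7-21S, and at 116, 115, 119 and 114 CPM with DMSO. The gap between dFz7-21 and the others was wide at both times and wider at 24 h. Cdca7 was 2.44-fold lower than with DMSO at 24 h (-1.29 ± 0.07, adjusted p = 1.35e-12) and 1.71-fold lower at 6 h (-0.77 ± 0.07, adjusted p = 4.28e-08), and the difference between those changes was called (-0.51 ± 0.10, adjusted p = 0.000691). Against Fz7-21S the log2 changes were -1.36 ± 0.07 and -0.70 ± 0.07.

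Uhrf1 (chromosome 17, 56303337 to 56323486) encodes the protein that reads hemimethylated DNA after replication. At 24 h, Uhrf1 stood at 69.1, 59.3, 66.2 and 58.7 CPM with dFz7-21, at 89.2, 90.5, 90.5 and 57.6 CPM with Fz7-21S, and at 89.4, 104, 90.5 and 96.1 CPM with DMSO. At 6 h, Uhrf1 stood at 63.8, 73.3, 63.7 and 74.5 CPM with dFz7-21, at 91.0, 109, 93.5 and 100.1 CPM with Fz7-21S, and at 101, 112, 106 and 104 CPM with DMSO. Fz7-21S 24 h replicate 4 lay below every dFz7-21 library of its time, and without it the dFz7-21 libraries lay below all others of their time. The log2 change of Uhrf1 against DMSO was -0.58 ± 0.10 at 24 h (adjusted p = 9.96e-05) and -0.62 ± 0.10 at 6 h (adjusted p = 0.000212). Against Fz7-21S at 24 h it was -0.37 ± 0.10 (adjusted p = 0.00770), and that call was lost in a fit of only the groups compared (-0.39, adjusted p = 0.0950).

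Slbp encodes the protein that binds the stem-loop of histone mRNA, and Chaf1b a subunit of the factor that places histones on new DNA. At 24 h, Slbp stood at 63.6, 55.4, 55.9 and 58.9 CPM with dFz7-21, at 74.0, 73.6, 69.5 and 78.0 CPM with Fz7-21S, and at 72.1, 80.9, 70.3 and 71.6 CPM with DMSO. At 6 h, Slbp stood at 56.3, 64.0, 56.0 and 61.4 CPM with dFz7-21, at 68.6, 73.7, 73.5 and 71.9 CPM with Fz7-21S, and at 67.1, 70.7, 72.9 and 76.7 CPM with DMSO. The dFz7-21 libraries were the lowest at both times. Slbp changed by -0.33 ± 0.06 against DMSO at 24 h (adjusted p = 0.000116) and by -0.27 ± 0.06 at 6 h (adjusted p = 0.00317), and Chaf1b by -0.51 ± 0.08 (adjusted p = 2.34e-05) and -0.65 ± 0.08 (adjusted p = 5.66e-06).

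**Figure D4:**
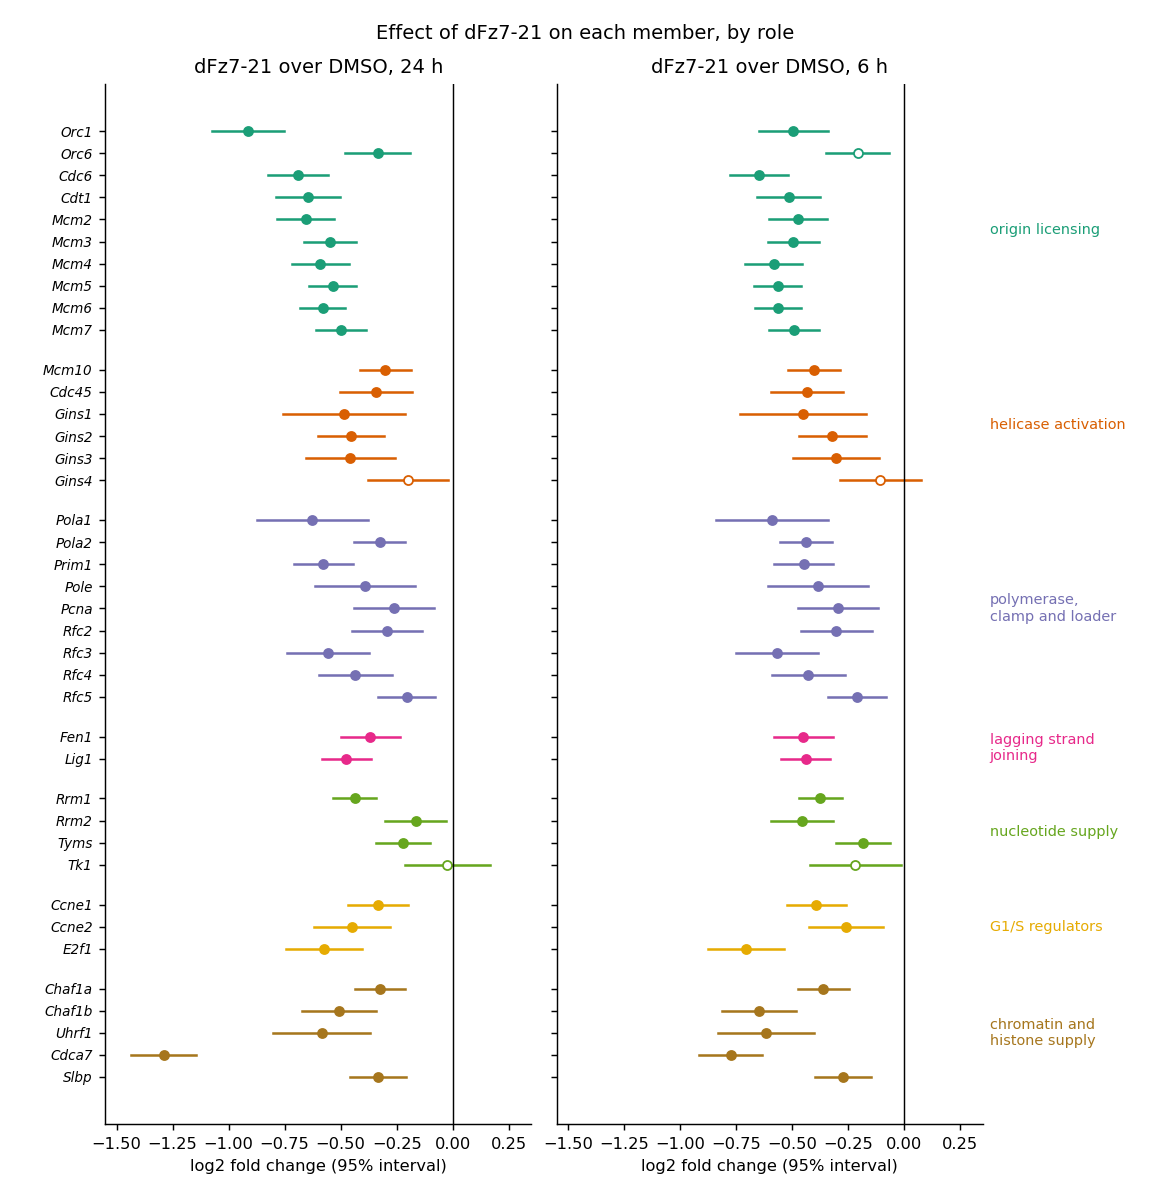
Log2 fold change of each of the 39 genes with dFz7-21 over DMSO at 24 h (left) and at 6 h (right), with 95% intervals from the edgeR fit, in order of role; filled points were called at an adjusted p below 0.05. All points lie below 0, Cdca7 and Orc1 lie lowest at 24 h, and Gins4 and Tk1 are open at both times.

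The change of the dFz7-21 effect between the times was called for 3 of 39 genes: lower at 24 h for Cdca7 and Orc1, and higher for Rrm2 (0.29 ± 0.09, adjusted p = 0.0383). Over all tested genes, 5.78% were called lower and 7.37% higher in that contrast, so the share of members is near the background. DESeq2 called 3 members, and 4 had an unadjusted p below 0.05 in the edgeR test, the fourth being Mcm2 (-0.18 ± 0.09, adjusted p = 0.192). Of all 15429 tested genes, 3916 had such an unadjusted p, and DESeq2 called 978 of 15418 genes lower and 1422 higher. The Rrm2 call was lost without the 3 libraries with mesenchymal transcripts (0.13, adjusted p = 0.426), with library totals alone (0.0927), and on leaving out dFz7-21 24 h replicate 3, DMSO 24 h replicate 3 or 4, dFz7-21 6 h replicate 2 or 3, or DMSO 6 h replicate 1 or 2 (0.0535 to 0.0988).

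With culture time alone, some of the genes were higher and some lower. With DMSO, 18 of 39 were called higher and 9 lower at 24 h than at 6 h, where 27.3% of tested genes were called higher and 24.9% lower, so that the share of members called lower is near the background. Without the 3 libraries with mesenchymal transcripts, 17 members were higher and 6 lower, as were 3422 and 3170 of all 15429 tested genes. The sets parted by role. All 4 genes of nucleotide supply, 7 of 9 of polymerases, clamp and loader, 5 of 6 of helicase activation and 1 of 2 of lagging strand joining rose, while in licensing 6 of 10 fell and 1 rose, and 2 of the 3 G1/S regulators fell. In chromatin and histone supply 0 of 5 were called. Without the 3 libraries with mesenchymal transcripts, the regulators Ccne1 (-0.12, adjusted p = 0.233) and Ccne2 (-0.23, adjusted p = 0.0683) were not called. Nor was Pole (0.32, adjusted p = 0.0676) in that setting.

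Tk1 changed most, at 67.4 ± 5.40 CPM in DMSO at 24 h and 21.9 ± 1.36 CPM at 6 h (3.07-fold higher, log2 1.62 ± 0.10, adjusted p = 1.07e-12). Lig1 followed (0.77 ± 0.05, adjusted p = 1.62e-11), then Mcm7 (0.53 ± 0.05, adjusted p = 1.34e-08) and Gins2 (0.67 ± 0.07, adjusted p = 2.64e-08) by p-value. Mcm7 was the licensing gene that rose, at 114 ± 3.72 CPM in DMSO at 24 h and 78.8 ± 1.39 CPM at 6 h, while the values of the other MCM genes of the ring were -0.22 to 0.03. Its model holds the genes of Mir25, Mir93 and Mir106b and shares 91 bases with Ap4m1. Gins3 was the activation gene that fell (-0.27 ± 0.09, adjusted p = 0.0176). The other genes that fell were Orc1 (-0.33 ± 0.07, adjusted p = 0.000680), Orc6 (-0.28 ± 0.07, 0.00130), Cdc6 (-0.29 ± 0.06, 0.000430), Mcm2 (-0.21 ± 0.06, 0.00601), Mcm3 (-0.22 ± 0.06, 0.00189), Mcm4 (-0.17 ± 0.06, 0.0247), Ccne1 (-0.15 ± 0.06, 0.0487) and Ccne2 (-0.33 ± 0.08, 0.00131). The Ccne1 call was lost on leaving out any 1 of DMSO 24 h replicates 1, 3 and 4 or DMSO 6 h replicates 1 to 3 (adjusted p of 0.0609 to 0.148). Both the Ccne1 and the Ccne2 call were lost without the libraries with mesenchymal transcripts.

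**Figure D5:**
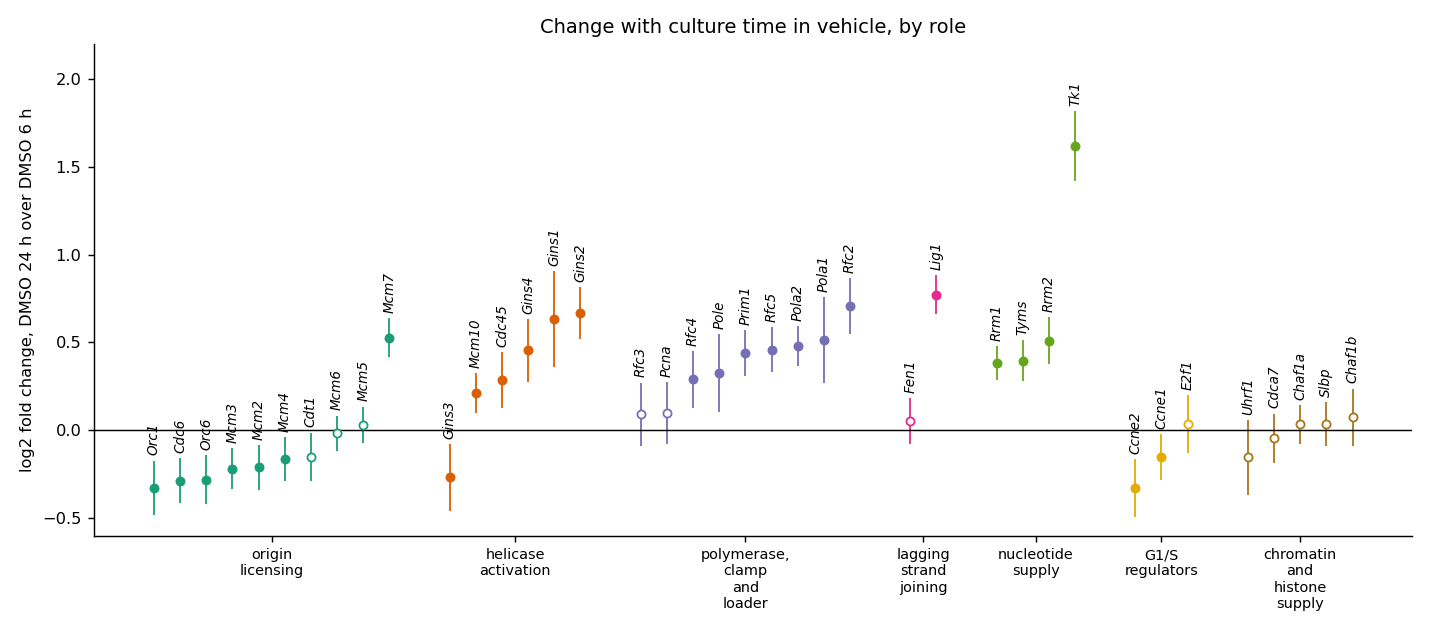
Log2 fold change of each of the 39 genes in DMSO at 24 h over 6 h, with 95% intervals from the edgeR fit, grouped by role; filled points were called at an adjusted p below 0.05. Most licensing genes lie at or below 0 while the genes of nucleotide supply and most polymerase genes lie above it, with Tk1 highest at 1.62.

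With dFz7-21, 19 genes were called higher and 10 lower at 24 h than at 6 h, where 29.8% of tested genes were called higher and 30.1% lower, so that the share called lower is again not above the background. Tk1 (1.81 ± 0.10, adjusted p = 6.23e-14), Lig1 (0.74 ± 0.05, adjusted p = 2.15e-11), Rrm2 (0.80 ± 0.07, adjusted p = 1.87e-10) and Pola2, the second subunit of the fragment-starting polymerase (0.59 ± 0.06, adjusted p = 1.77e-09), had the smallest p. Orc1 fell by 0.74 ± 0.08 and Cdca7 by 0.56 ± 0.07 on the log2 scale, and in all 10 fell, among them 7 of 10 licensing genes. The groups compared here include dFz7-21 24 h replicate 3.

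Replication genes outside the list moved the same way, with exceptions. Of 58 such genes, all tested, 38 were called lower and 2 higher with dFz7-21 than with DMSO at 24 h (median -0.31), and 33 lower and 1 higher at 6 h (median -0.32). Against Fz7-21S the counts were 37 lower and 2 higher at 24 h and 25 lower and 0 higher at 6 h. Over all tested genes, 17.7% at 24 h and 5% at 6 h were called lower against DMSO. Against Fz7-21S, those shares were 17.2% and 3.83%. The smallest p at 24 h were those of Cdca7l, a relative of Cdca7 (-0.66 ± 0.06, adjusted p = 3.54e-09), Timeless, a fork protection protein (-0.74 ± 0.07, adjusted p = 1.29e-08), E2f2 (0.59 ± 0.06, adjusted p = 5.07e-08) and Rfc1, the large subunit of the clamp loader (-0.53 ± 0.06, adjusted p = 3.53e-07). At 6 h they included those of Cdca7l (-0.57 ± 0.06, adjusted p = 3.01e-07), Shmt1, of folate metabolism (-0.50 ± 0.05, adjusted p = 6.81e-07), and Timeless (-0.60 ± 0.07, adjusted p = 2.56e-06).

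E2f2, another activator of the E2F family, thus went opposite to E2f1 at 24 h. Its level was 147 ± 8.61 CPM with dFz7-21, 89.9 ± 4.23 CPM with Fz7-21S and 97.7 ± 8.84 CPM with DMSO at 24 h (SD, n = 4). At 6 h E2f2 was not called (0.11 ± 0.06, adjusted p = 0.325). Pold4, the small subunit of the lagging-strand polymerase, was the other gene that rose against DMSO, by 0.58 ± 0.10 at 24 h (adjusted p = 4.54e-05) and 0.33 ± 0.10 at 6 h (adjusted p = 0.0273).

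Genes of G2 and mitosis act after S phase. Of 30 such genes, 17 were called lower and 0 higher with dFz7-21 than with DMSO at 24 h (median -0.18). Of all tested genes, 17.7% were called lower there. At 6 h, 3 of 30 (10%) were called lower and 0 higher (median -0.03), against 5% of all tested genes called lower. The 3, looked up after their values were seen, are Ttk (-0.43 ± 0.09), Aurkb (-0.18 ± 0.04) and Kif20a (-0.18 ± 0.05), kinases and a motor protein of mitosis. Against Fz7-21S, 12 were lower at 24 h and 0 at 6 h, where 17.2% and 3.83% of all tested genes were. With DMSO over time, 29 of 30 were higher at 24 h than at 6 h, with a median of 0.79. Of the 39 listed genes, 18 were higher, with a median of 0.09, and of all tested genes 27.3% were. The difference between the lists was not tested.

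Markers of cell types moved with dFz7-21 too. The summed level of 5 stem cell markers (Lgr5, Ascl2, Olfm4, Smoc2 and Axin2) was 248 to 370 CPM with dFz7-21 at 24 h, against 2030 to 2319 CPM with Fz7-21S and 2043 to 2739 CPM with DMSO, and 5 of 5 were called lower against DMSO. At 6 h the sums were 1377 to 1583 CPM with dFz7-21, 1808 to 1915 CPM with Fz7-21S and 1944 to 2086 CPM with DMSO, with 4 of 5 called lower and Olfm4 not (-0.30 ± 0.13, adjusted p = 0.146). The summed level of 5 enterocyte markers was 4194 to 4894 CPM with dFz7-21 at 24 h, 2740 to 3676 CPM with Fz7-21S and 2385 to 2808 CPM with DMSO, and 5 of 5 were called higher. At 6 h the enterocyte sums overlapped, at 2498 to 3111 CPM with dFz7-21, 2577 to 2906 CPM with Fz7-21S and 2186 to 2825 CPM with DMSO, and 1 of 5, Krt20, was called higher (0.27 ± 0.08, adjusted p = 0.0241). Against DMSO at 24 h, 4 of 4 Paneth cell and 1 of 3 tuft cell markers were called lower. Higher were 3 of 4 goblet cell and 2 of 3 enteroendocrine markers. At 6 h, 2 of 4 goblet cell markers were higher and no Paneth, enteroendocrine or tuft marker was called. Over all tested genes against DMSO, 18.2% were called higher and 17.7% lower at 24 h, and 6.05% and 5% at 6 h. The 4 immune markers summed to 9.67 to 10.9 CPM with dFz7-21 at 24 h and to 3.89 to 7.43 CPM in the other groups; Itgam made up most of that sum (9.26 ± 0.197 CPM with dFz7-21 and 5.34 ± 0.649 CPM with DMSO at 24 h), while Cd68 stood at 0.922 ± 0.509 and 1.08 ± 0.168 CPM. The listed genes changed by a median of -0.45 at 24 h and -0.44 at 6 h on the log2 scale, and the stem cell markers by a median of -2.11 and -1.20. The part of changed cell makeup in the replication genes was not tested.

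By promoter, the 20 genes with E2F-type letters had a median log2 change against DMSO of -0.54 at 24 h and -0.50 at 6 h, and the 12 without had -0.33 and -0.34. The ranges overlapped, from -1.29 to -0.17 with such letters and from -0.66 to -0.02 without at 24 h. Mcm2 and E2f1, without a match in their windows, fell by more than the median of the list. Whether such letters bear on the size of the change was not tested.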

How the data were processed

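RNA of 24 organoid libraries was analysed from 1 table per library. The authors deposited counts of reads that aligned uniquely to each gene model, per the file headers, and RPKM adjusted by a size factor per sample, per the file headers. Reads were aligned with GSNAP to GRCm38, per the submitters' processing notes. The sources used here do not give the aligner's version, the annotation, the read filters or whether strand was used. RPKM served only for levels between genes, and its ratio to counts was constant within a gene and library (coefficient of variation at most 2e-15 after scaling).

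Counts were tested with edgeR 4.0.16 (robust quasi-likelihood F test, TMM factors, filterByExpr over the 6 groups) in R 4.3.3 with limma 3.58.1. All 24 libraries entered 1 fit, Benjamini-Hochberg adjustment ran over 15429 genes, and calls were made at an adjusted p under 0.05. Values are log2 fold changes ± SE. Levels are TMM-normalised CPM. The test was tried on simulated counts first. Alternatives were RLE size factors, library totals, no filter, the replicate number as a block, only the groups compared, DESeq2 1.42.0, and leaving out libraries. Depth was 20.4 to 33.1 M counts (median 25.1 M), so that 3 counts are 0.0906 to 0.147 CPM, counting error only. Replicates of a group differed by chi-square per degree of freedom of 2.77 to 88.9, so no library was counted as a copy of another.

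The 39 genes and the other lists were chosen with earlier results of these data known. Genes named in the text are 25 chosen by role, the 4 members with the smallest p in each comparison, members called against the majority, and the 4 other replication genes with the smallest p in each dFz7-21 comparison with DMSO; others are said to be chosen later or serve as checks. A gene that this rule names is not reported here. No protein sequence was used here.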

Additional observations from a re-analysis of the deposited data

Results flagged for a closer look

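Among 84 groups of 4 libraries examined (13 genes by 6 groups, and the mean over the list), 8 had 1 library far from the other 3 by Dixon's criterion, and chance gives such a value in about 1 of 20 groups. Of the 8, 4 were in Fz7-21S 24 h replicate 4, the library in which long genes were low: Mcm2 was low at 145.3 CPM, Uhrf1 low at 57.64 CPM, Pcna high at 57.78 CPM and Cdca7 high at 140.6 CPM. The part of gene length in these values was not tested. Mcm2 was high in DMSO 6 h replicate 2 at 216.4 CPM, one of the libraries with mesenchymal transcripts. Mcm6 was high in Fz7-21S 6 h replicate 2 at 251.6 CPM, Cdt1 was high in DMSO 24 h replicate 3 at 97.11 CPM, and Cdca7 was high in dFz7-21 6 h replicate 4 at 71.31 CPM.

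For 3 genes the effect of dFz7-21 against DMSO differed between 24 h and 6 h by the edgeR test of that difference: Cdca7 by -0.51, Orc1 by -0.42 and Rrm2 by 0.29 on the log2 scale. For Cdca7 and Orc1 the genes were lower by more at 24 h, and for Rrm2 by less.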

How the results depend on the processing

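Scaled by library totals alone, the member median moved to -0.54 for dFz7-21 against DMSO at 24 h, to -0.49 at 6 h and to -0.55 for dFz7-21 against Fz7-21S at 24 h; the median over all genes was then -0.09, -0.04 and -0.07. Also without TMM, 1242 genes were called lower and 656 higher at 6 h against DMSO (771 and 933 with TMM), 3571 and 1935 at 24 h against Fz7-21S (2651 and 2551), and 777 and 374 at 6 h against Fz7-21S (591 and 495). Without the 3 libraries with mesenchymal transcripts and Fz7-21S 24 h replicate 4, an alternative chosen after seeing the data, the median against Fz7-21S at 24 h was -0.42, and Tk1 against DMSO at 24 h turned to 0.00204; leaving out single libraries gave Tk1 values from -0.0677 to 0.0221, with 0.00157 and 0.0107 without dFz7-21 replicate 3 and 2. The cause was not tested.

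Leaving out 1 library at a time, members called were 35 to 36 and 29 to 33 for dFz7-21 against DMSO at 24 h and 6 h, 36 to 37 and 24 to 29 against Fz7-21S, and 0 to 1 for Fz7-21S against DMSO at 24 h. In the fit of all 24 libraries, 17.7% and 5% of all tested genes were called lower against DMSO, and 17.2% and 3.83% against Fz7-21S. The median against Fz7-21S at 24 h ranged from -0.52 to -0.42, and that of dFz7-21 at 24 h against 6 h from 0.15 to 0.26, the highest without dFz7-21 24 h replicate 2. Replicate numbers did not pair the samples (correlations of same-numbered deviations of -0.104 to 0.115, best with the own number in 11 of 32). With the replicate block, dFz7-21 calls among members numbered 36 (24 h) and 37 (6 h) relative to DMSO, 36 and 31 relative to Fz7-21S, and 2 for the difference between times, and the Rrm2 adjusted p were 0.0686 at 24 h and 0.0551 for that difference. With that block, 17.8% and 5.06% of all tested genes were called lower relative to DMSO, and 17.2% and 3.81% relative to Fz7-21S. For the difference between times, 1056 of 15429 genes were called higher and 891 lower. Over single genes and alternatives, 2153 values kept direction and call, 87 lost the call, 20 gained it and 4 changed sign. The E2F-type letters were found for 59.4% of members in the narrower window. A count of 0 allows up to 0.0906 to 0.147 CPM at these depths, and each group has 4 libraries.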
